A study of Homo sapiens with 16 samples.

Results

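Metallothioneins and zinc transport genes were followed in 2 colorectal cancer cell lines treated with itraconazole, a triazole antifungal that inhibits the sterol 14-alpha-demethylase CYP51A1. The 10 genes were chosen by symbol: the metallothioneins MT1E, MT1F, MT1G, MT1X and MT2A, the metal-sensing transcription factor MTF1, the zinc exporter SLC30A1 and the zinc importers SLC39A4, SLC39A5 and SLC39A10. All 10 were found among the 54127 gene rows of the count files. In untreated cells MT2A, MT1X, MT1E and MT1G were lower in SW948 than in HT55, with 36 counts or fewer each over 4 libraries. After itraconazole MT2A, MT1X and MT1E rose in SW948, while MT2A fell in HT55, and SLC30A1 rose in both lines.

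Metallothioneins are small cysteine-rich proteins that bind zinc and copper in the cytosol. When free zinc rises, MTF1 binds zinc through its zinc fingers and activates the metallothionein genes and SLC30A1 through short DNA sequences called metal response elements. SLC30A1 exports zinc across the plasma membrane and SLC39 proteins bring it into the cytosol, and intestinal epithelium, which absorbs dietary zinc, expresses members of both families.

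The 4 groups were HT55 cells with DMSO, HT55 cells with itraconazole, SW948 cells with DMSO and SW948 cells with itraconazole, with 4 libraries each. Both lines are established human colorectal cancer lines that were grown adherent with foetal bovine serum and antibiotics. The drug was given at 5 µM, DMSO was its solvent, and RNA was taken on day 6. Each line stands for a single tumour. The study's methods state 4 biological replicates per experiment, but the labels do not say whether the 4 libraries of a group came from separate cultures. The p-values thus measure only the spread between these libraries.

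The libraries held 8269406 to 11110814 gene counts, and all 10 colorectal epithelium markers had counts in every group. Leukocyte markers summed to at most 0.127 CPM (counts per 1000000 gene counts) and endothelial markers to at most 0.713 CPM in any library. Fibroblast markers summed to at most 4.69 CPM in the 2 DMSO groups and to 9.95 to 12.1 CPM in treated SW948, nearly all of it COL1A1. In treated HT55 they summed to 3.33 to 3.98 CPM against 1.41 to 2.14 CPM in its controls, and PDGFRB was called higher there (log2 fold change 1.25, adjusted p = 0.00216, edgeR). In treated SW948 4 of the 6 fibroblast markers had counts, and COL1A2 and COL3A1 were at 0. COL1A1 was called higher there (log2 fold change 1.65, adjusted p = 9.01e-07, edgeR). PDGFRB had 26 counts in untreated and 9 in treated SW948 and was too low to be tested in that line. The part of this in the results below was not tested. CPM rest on library totals after TMM scaling, which sets the bulk of genes level between libraries. In bulk RNA, fewer cells with a transcript and less of it per cell cannot be told apart.

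The metallothionein genes lie in a cluster on chromosome 16 and their coding sequences are near copies, which bears on every count below. The coding sequences on GRCh37 are shown to let the copies be compared base by base, with capitals at each base that differs from MT2A. All 5 have 186 coding bases, and for MT1E and MT1G the annotated transcript of that length is shown in place of the canonical one.
MT2A: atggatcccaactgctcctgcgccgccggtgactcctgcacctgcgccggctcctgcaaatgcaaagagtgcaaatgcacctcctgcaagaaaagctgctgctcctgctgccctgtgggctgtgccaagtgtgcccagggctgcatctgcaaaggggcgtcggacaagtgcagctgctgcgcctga
MT1X: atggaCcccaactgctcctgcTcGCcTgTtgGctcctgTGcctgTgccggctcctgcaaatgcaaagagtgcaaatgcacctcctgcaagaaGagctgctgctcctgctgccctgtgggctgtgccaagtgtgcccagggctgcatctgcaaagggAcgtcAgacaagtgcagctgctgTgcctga
MT1E: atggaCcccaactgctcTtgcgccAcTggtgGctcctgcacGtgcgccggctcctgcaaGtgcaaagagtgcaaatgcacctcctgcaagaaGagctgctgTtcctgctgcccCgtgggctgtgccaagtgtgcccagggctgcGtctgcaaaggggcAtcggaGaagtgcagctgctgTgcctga
MT1G: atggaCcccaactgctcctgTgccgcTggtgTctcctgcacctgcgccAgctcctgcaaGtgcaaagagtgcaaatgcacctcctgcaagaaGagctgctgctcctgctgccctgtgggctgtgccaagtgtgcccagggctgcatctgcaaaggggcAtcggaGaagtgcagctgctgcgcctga
MT1F: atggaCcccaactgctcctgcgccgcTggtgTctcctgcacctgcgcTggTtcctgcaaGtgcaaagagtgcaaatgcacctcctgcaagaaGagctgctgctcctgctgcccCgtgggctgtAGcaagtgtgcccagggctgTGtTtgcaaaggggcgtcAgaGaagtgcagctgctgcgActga
MT1G differed from MT2A at 9 bases, MT1E and MT1X at 14 bases each, and MT1F at 16 bases. Over all 10 pairs the identity of the coding sequences ran from 88.7% to 95.2%. MT2A is at chr16:56642496-56643409, MT1E at chr16:56659387-56661024, MT1F at chr16:56691643-56694610 and MT1X at chr16:56716382-56718108 on the plus strand, and MT1G at chr16:56700642-56701977 on the minus strand.

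Reads of 50 bases that aligned to more than 1 place were not counted in any gene, and such alignments made up 22.0% to 23.6% of all entries counted in a file in untreated SW948 and 24.1% to 27.9% in the other 3 groups. The part of this in the metallothionein counts was not tested. Every 50-base window of each canonical transcript was therefore searched for in the genome and in the transcripts of other genes. A window with no exact match elsewhere made up 88.9% of MT2A, 79.9% of MT1E, 79.7% of MT1X, 78.7% of MT1G and 93.9% of MT1F. With up to 2 mismatches allowed, the share fell to 44.6% for MT2A and 43.5% for MT1E. The share was 98.6% for MTF1 and 100% for the 4 transporters when exact matches were sought. The metallothionein counts are thus counts of a part of each transcript, and how many reads were placed on a wrong copy was not measured. MT1X also shares 321 bases on its own strand with a long noncoding RNA that has no row in the count files.

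**Figure D1:**
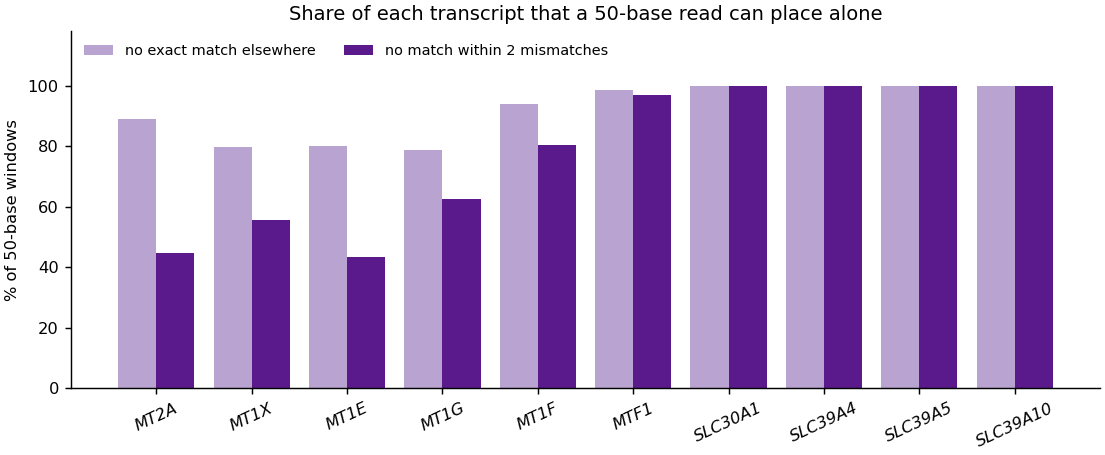
Bars give, for each of the 10 genes, the percentage of 50-base windows of the canonical transcript with no exact match elsewhere (light) and with no match elsewhere within 2 mismatches (dark). The dark bars of MT2A (44.6%) and MT1E (43.5%) are the lowest, and those of the transporters reach 99.8% or more.

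The sequence upstream of MT2A, MT1X and SLC30A1 is shown because these genes rose in SW948 and because metal response elements sit there by textbook knowledge. Capitals mark TGCACNC or TGCGCNC on either strand. Each run holds the 250 bases before the RefSeq start site on GRCh38.p14, read 5′ to 3′ along the gene: MT2A at chr16:56608334-56608583 (plus strand), MT1X at chr16:56682220-56682469 (plus strand) and SLC30A1 at chr1:211579162-211579411 (minus strand).
MT2A: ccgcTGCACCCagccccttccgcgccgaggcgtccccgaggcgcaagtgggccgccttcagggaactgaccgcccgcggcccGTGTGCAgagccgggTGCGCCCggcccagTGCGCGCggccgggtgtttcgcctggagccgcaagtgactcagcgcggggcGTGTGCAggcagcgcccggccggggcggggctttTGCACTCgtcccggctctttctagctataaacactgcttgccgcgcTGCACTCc
MT1X: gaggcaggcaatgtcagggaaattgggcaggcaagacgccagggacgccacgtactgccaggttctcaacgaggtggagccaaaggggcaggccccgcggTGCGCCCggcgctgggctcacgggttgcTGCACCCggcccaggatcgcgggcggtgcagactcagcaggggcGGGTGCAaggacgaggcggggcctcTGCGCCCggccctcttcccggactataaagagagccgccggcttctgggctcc
SLC30A1: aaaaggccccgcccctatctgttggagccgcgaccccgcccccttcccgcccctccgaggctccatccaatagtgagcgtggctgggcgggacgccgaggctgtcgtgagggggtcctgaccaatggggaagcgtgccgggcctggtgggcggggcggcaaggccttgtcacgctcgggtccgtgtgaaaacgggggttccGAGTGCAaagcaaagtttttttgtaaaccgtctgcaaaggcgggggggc
MT2A held 7 matches, MT1X 4 and SLC30A1 1, and no match overlapped another. Of 35116 RefSeq windows of this length, 24.8% held at least 1 match, 0.37% at least 4 and 0.0313% at least 7. The windows of MTF1, SLC39A5 and SLC39A10 held none. Among the other listed metallothionein, SLC30 and SLC39 genes with a window, MT1H held 8 matches and had 0 counts in all 16 libraries. MT1B, MT4 and SLC30A2 held 3 each, with 3, 6 and 266 counts, and the rest held at most 2. A match is a description of letters, and no binding was measured here. MT1E and MT1G had larger ratios of treated to control counts in SW948 than MT2A, MT1X and SLC30A1, but on 1 and 2 control counts. Their 95% intervals from counting error alone (30.1 to 6811 and 20.5 to 634) overlapped that of MT2A (26.6 to 55.1). MT1E and MT1G were not analysed here for this motif. Nor were MT1F and SLC39A4.

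In untreated cells MT2A had 262, 274, 234 and 214 counts in the 4 HT55 libraries and 12, 5, 6 and 10 in the 4 SW948 libraries. All HT55 libraries lay far above all SW948 libraries. The mean level was 26.7 ± 1.85 CPM in HT55 and 0.682 ± 0.228 CPM in SW948 (SD, n = 4), a log2 difference of -5.24 ± 0.15 (SE) in SW948 relative to HT55 with an adjusted p of 5.09e-20 (edgeR). MT1X was lower in SW948 by the same test (5.01 ± 0.414 against 0.744 ± 0.385 CPM, log2 difference -2.71, adjusted p = 2.13e-10). Both met the filter on low counts in 4 HT55 libraries and in 1 SW948 library, so that they were tested through the line in which they were high.

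MT1E was found at 73, 76, 56 and 70 counts in untreated HT55 and at a single count over the 4 SW948 libraries. That gives a ratio of 355 for HT55 over SW948, with a 95% counting interval of 63.2 to 14075. MT1G had 66 counts in untreated HT55 and 2 in untreated SW948, a ratio of 42.6 (11.3 to 359). Both passed the test (adjusted p = 2.63e-15 and 1.29e-09, edgeR), but both met that filter only through HT55, so that a difference was built into their being tested. MT1F had 12 counts in HT55 and 16 in SW948, below that filter in every comparison. The counting intervals cover counting error alone.

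**Figure D2:**
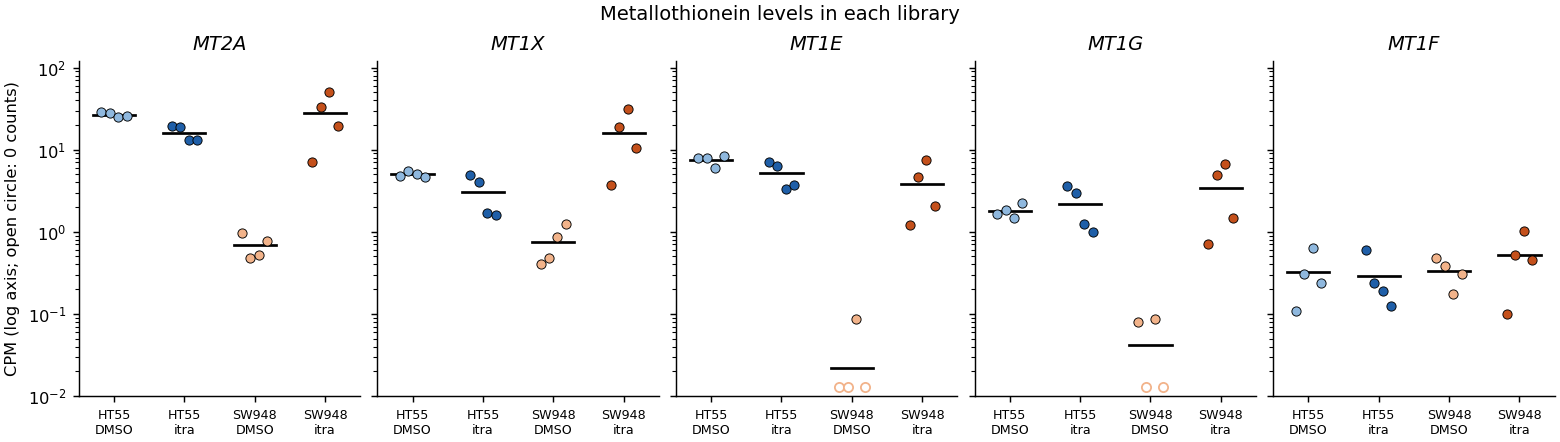
CPM of the 5 metallothioneins in each of the 16 libraries on a log axis, with points for libraries, bars for group means and open circles at the foot for libraries with 0 counts. Untreated SW948 libraries sit lowest for MT2A, MT1X, MT1E and MT1G, and treated SW948 libraries sit above them without overlap.

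Itraconazole raised MT2A in SW948 from 12, 5, 6 and 10 counts to 71, 257, 401 and 172. The lowest treated library was far above the highest control. The treated mean was 27.7 ± 18.9 CPM (SD, n = 4) beside 0.682 CPM in the controls. The log2 fold change was 5.24 ± 0.61 (SE, adjusted p = 2.18e-06). Untreated HT55 was at 26.7 CPM.

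MT1X rose in SW948 from 5, 5, 10 and 16 counts to 37, 146, 246 and 94, again with no overlap. Its log2 fold change was 4.33 ± 0.62 (adjusted p = 1.75e-05), and its treated mean of 16.1 ± 11.9 CPM was above the 5.01 CPM of untreated HT55. Treated replicate 1, at 3.71 CPM, lay below every untreated HT55 library (4.63 to 5.56 CPM). MT1E went from 1 count in all to 12, 36, 58 and 18 counts, a ratio of 171 with a counting interval of 30.1 to 6811, and passed the test (adjusted p = 1.56e-05). The single control count came from replicate 3, and without that library the controls of MT1E were all at 0. MT1G had 2 counts in the controls and 7, 38, 52 and 13 in the treated libraries, a ratio of 75.9 (20.5 to 634). It was below the filter in this comparison, and permuting the libraries in every way gave an exact two-sided p of 0.0286, the smallest that 4 against 4 allow. MT2A, MT1X and MT1E met the filter in 4 treated libraries and in at most 1 control library, so that they were tested through the group in which they were high.

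MT1F, with 16 counts in untreated and 17 in treated SW948, gave a ratio of 1.47 (0.696 to 3.10) and an exact permutation p of 0.429. Its interval lies below the intervals of the other 4 genes. MT1F has the largest share of windows placed alone within 2 mismatches among these 5 genes, 80.3%.

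HT55 went another way. MT2A was at 28.4, 28.2, 24.8 and 25.4 CPM in untreated and at 19.6, 18.7, 13.2 and 13.05 CPM in treated HT55, so the groups did not overlap. The log2 fold change was -0.73 ± 0.14 (adjusted p = 0.0016). When all 16 libraries entered 1 fit, the call was lost (log2 fold change -0.73, adjusted p = 0.0781).

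MT1X was at 5.01 CPM in untreated and 3.05 CPM in treated HT55, a log2 fold change of -0.73 with a 95% interval of -1.43 to -0.03 and an adjusted p of 0.0715. MT1E had a log2 fold change of -0.56 (-1.09 to -0.02, adjusted p = 0.0751). Neither passed the threshold, and each passed without treated replicate 1 (log2 fold change -1.05 for MT1X and -0.75 for MT1E, adjusted p = 0.0178 and 0.0278) or without treated replicate 2 (-0.90 and -0.68, adjusted p = 0.0434 and 0.0448). MT1G had 66 counts in untreated and 76 in treated HT55 (log2 fold change 0.26 ± 0.39, adjusted p = 0.587), and MT1F had 12 and 10.

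The sum of the 5 metallothioneins gives the size of the contrast. It was 38 to 43.8 CPM in untreated HT55 and 19.5 to 35.8 CPM in treated HT55. In SW948 it was 1.33 to 2.31 CPM without drug and 12.8, 62.1, 97.4 and 34.03 CPM with it. MT2A made up 64.7% of the summed counts in untreated HT55, 60.4% in treated HT55, 37.5% in untreated SW948 and 53.8% in treated SW948.

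The treated SW948 libraries differed most among themselves in this sum. Their highest sum was 7.59 times their lowest, against 1.15 times in untreated HT55, 1.83 times in treated HT55 and 1.75 times in untreated SW948. All 5 metallothioneins were lowest in replicate 1, next in replicate 4, then in replicate 2, and highest in replicate 3. SLC39A10 had exactly the opposite order there, from 111 CPM in replicate 1 to 83.1 CPM in replicate 3. In treated HT55 the metallothioneins were lowest in replicates 3 and 4 and highest in replicate 1, and SLC39A10 was lowest in replicate 1 and highest in replicate 4.

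Over the 16 libraries, after each group's mean was taken off the log2 level, MT1X and MT2A had a Pearson correlation of 0.80 and MT1E and MT1G of 0.88. The correlation of SLC39A10 was -0.82 with MT1X and -0.70 with MT2A, and that of SLC30A1 with MT2A was 0.34. By ranks (Spearman) these 3 values were -0.75, -0.33 and 0.22, so the opposition of SLC39A10 and MT2A was weak by ranks. These are descriptions of libraries that share scaling and depth, and the treated libraries carry most of the spread. Each treated library's whole shift from the controls was also measured, as the slope of its log2 changes on the mean changes of the other 3 treated libraries of its line. In SW948 the slope was 0.839 in replicate 1, 0.963 in replicate 4, 1.05 in replicate 2 and 1.08 in replicate 3. That is also the order of the metallothioneins in treated SW948. In HT55 the slope was 0.616 in replicate 3, 0.911 in replicate 1, 1.09 in replicate 4 and 1.12 in replicate 2, which is not their order there. The part of the whole shift in the order of the metallothioneins was not tested.

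**Figure D3:**
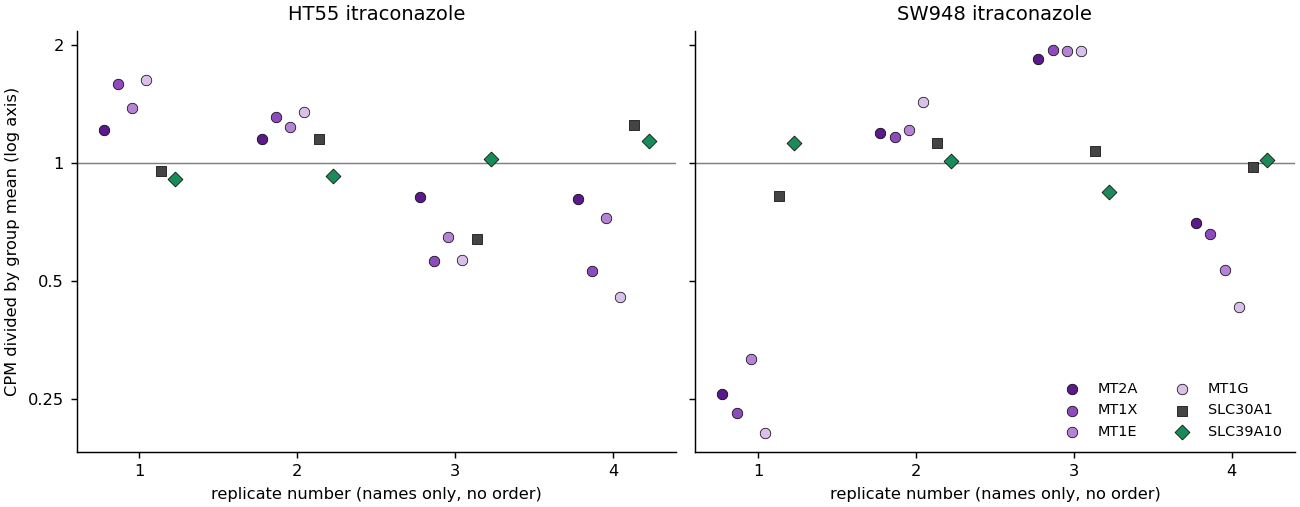
CPM of 4 metallothioneins (circles), SLC30A1 (squares) and SLC39A10 (diamonds) in each treated library, divided by the mean of its group, on a log axis; MT1F is left out for its low counts. In treated SW948 the circles are lowest in replicate 1 and highest in replicate 3, where SLC39A10 is lowest.

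MTF1, the zinc sensor, rose modestly in both lines. In HT55 it was at 15.9, 13.6, 11.4 and 14.1 CPM without drug and at 24.2, 19.5, 17.2 and 20.01 CPM with it. In SW948 the levels were 9.39, 9.46, 10.8 and 10.7 CPM without and 14.5, 15.2, 18.5 and 15.5 CPM with drug. The groups did not overlap in either line. The log2 fold change was 0.55 ± 0.14 in HT55 (adjusted p = 0.00619) and 0.62 ± 0.11 in SW948 (adjusted p = 0.000178). The difference between the 2 changes was 0.10 on the log2 scale, with a 95% interval of -0.27 to 0.47 (adjusted p = 0.661).

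SLC30A1, the exporter that removes zinc from the cytosol, had the most counts of the 10 genes and rose in both lines. In HT55 it was at 192, 193, 184 and 184 CPM without drug and at 527, 638, 354 and 690 CPM with it. In SW948 it was at 82.0, 98.5, 82.2 and 82.0 CPM without and at 264, 359, 343 and 312 CPM with drug. Every treated library was above every control library of its line, and the lowest treated HT55 library was replicate 3, the one with the smallest whole shift. The log2 fold change was 1.55 ± 0.17 in HT55 (adjusted p = 5.13e-05) and 1.86 ± 0.10 in SW948 (adjusted p = 9.57e-10). The 2 changes differed by 0.34, with an interval of -0.09 to 0.76 and an adjusted p of 0.167. SLC30A1 thus rose in HT55, where MT2A fell.

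**Figure D4:**
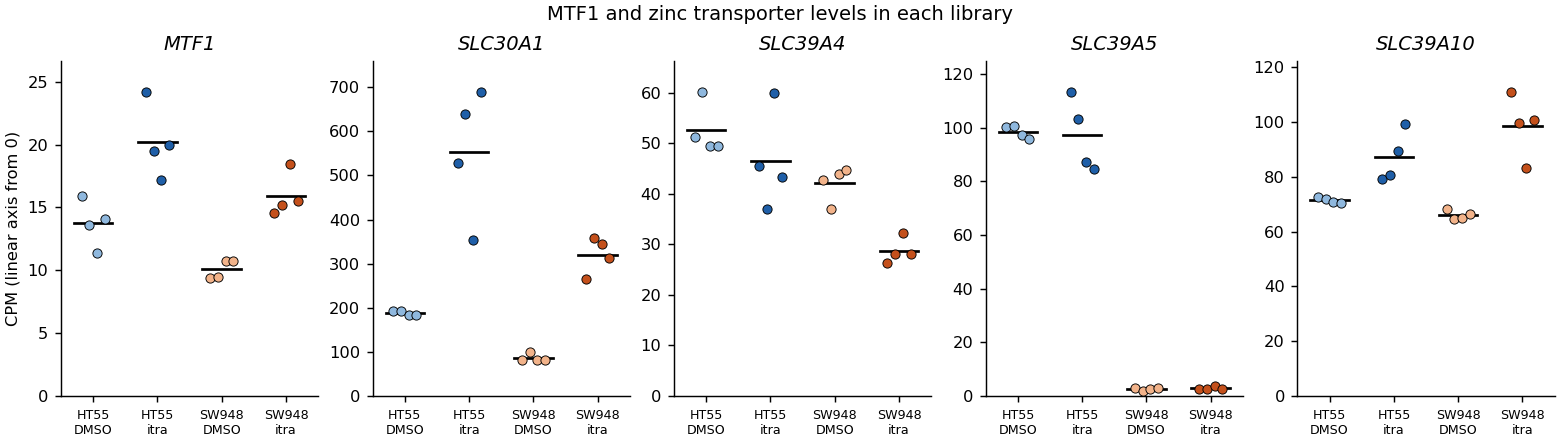
CPM of MTF1 and the 4 zinc transporters in each of the 16 libraries on linear axes from 0, with points for libraries and bars for group means. SLC30A1 and MTF1 are higher in the treated libraries of both lines without overlap, and SLC39A5 lies between 1.89 and 3.56 CPM in every SW948 library.

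The importers did not move as a group. SLC39A4, the apical importer whose loss causes the zinc deficiency acrodermatitis enteropathica, fell in SW948. It was at 42.7, 37.01, 43.9 and 44.8 CPM without drug and at 26.2, 28.1, 32.3 and 28.1 CPM with it, with no overlap (log2 fold change -0.59 ± 0.09, adjusted p = 3.08e-05). In HT55 it was at 51.2, 60.2, 49.4 and 49.5 CPM without and at 45.5, 37.1, 60.0 and 43.2 CPM with drug. That log2 fold change was -0.18 (-0.48 to 0.12, adjusted p = 0.289), and without treated replicate 3, which stood highest, it was -0.32 with an adjusted p of 0.00847. The difference between the lines was -0.38 (-0.73 to -0.03, adjusted p = 0.0626). Its gene overlaps a noncoding RNA on the opposite strand by 180 bases, and that RNA has no row.

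SLC39A5, an importer of the basolateral side of enterocytes, set the lines apart and did not pass the test in either treatment comparison. It was at 98.4 ± 2.35 CPM in untreated and 97.1 ± 13.7 CPM in treated HT55 (SD, n = 4), with a log2 fold change of -0.02 (-0.23 to 0.18, adjusted p = 0.837). In SW948 it was at 2.56 ± 0.470 and 2.80 ± 0.511 CPM, with a log2 fold change of 0.08 (-0.36 to 0.52, adjusted p = 0.728). Between untreated lines it was lower in SW948 by 5.24 on the log2 scale, a 37.8-fold difference (adjusted p = 3.98e-25). Between treated lines the log2 difference was -5.11 (adjusted p = 1.36e-10). It overlaps ANKRD52 on the opposite strand by 40 bases.

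SLC39A10, a plasma membrane importer whose gene has been described as repressed by MTF1 in mouse cells, rose a little in both lines. In HT55 it was at 72.5, 71.8, 70.7 and 70.6 CPM without and at 79.2, 80.5, 89.4 and 99.2 CPM with drug (log2 fold change 0.28 ± 0.08, adjusted p = 0.0105). In SW948 it was at 68.1, 64.7, 65.1 and 66.3 CPM without and at 111, 99.6, 83.1 and 100.6 CPM with drug (0.55 ± 0.08, adjusted p = 2.15e-05). The groups did not overlap in either line, but with plain library totals as the scale both calls were lost (log2 fold change 0.12 and 0.22, adjusted p = 0.266 and 0.0519).

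Among the 9 members tested in HT55, 3 rose and 1 fell. Of all 12133 genes tested there, 27.5% rose and 26.5% fell. Among the 8 members tested in SW948, 6 rose and 1 fell, where 38.9% of 12505 genes rose and 41.3% fell. MT2A, MT1X and MT1E, 3 of those 6, were tested through the treated libraries in which they were high, so that their rise was built into the tally. With plain library totals 32.6% of the called genes of HT55 had risen in place of 51.0%, and 31.6% in place of 48.5% in SW948. That scale moved the median log2 fold change of all genes by -0.16 in HT55 and -0.33 in SW948, and SLC30A1, MTF1 and the metallothioneins called above kept their directions and their calls under it.

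The response differed between the lines for 5 of 9 members, where 53.9% of 13249 genes differed. In the comparisons above MT2A, MT1X, MT1E and MT1G met the filter in at most 1 untreated SW948 library. They were thus tested through groups in which they were high, so that the tally is no measure against that share. The log2 fold change in SW948 exceeded that in HT55 by 6.01 ± 0.64 for MT2A (adjusted p = 3.41e-07), by 5.10 ± 0.77 for MT1X (1.78e-05), by 7.32 ± 0.97 for MT1E (4.54e-06) and by 5.65 ± 1.16 for MT1G (0.000442). For MT1E and MT1G these fitted sizes rest on 1 and 2 counts in untreated SW948. SLC39A10 differed by 0.29 ± 0.12 (adjusted p = 0.0405), a call that held in only 3 of 16 refits with a single library removed, those without treated HT55 replicate 3 or 4 or treated SW948 replicate 3, and the adjusted p reached 0.0996 in the other fits. It was also lost on plain library totals (0.10, adjusted p = 0.565) and without a filter (0.29, adjusted p = 0.0886). MTF1, SLC30A1, SLC39A4 and SLC39A5 did not pass.

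**Figure D5:**
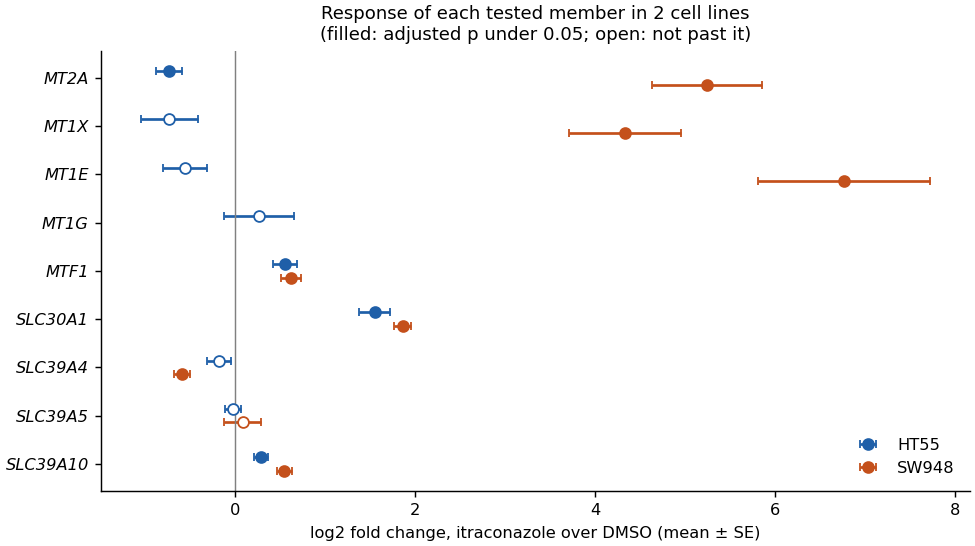
Log2 fold change (itraconazole over DMSO, points) with its SE (bars) for each tested member in HT55 and SW948; filled points passed an adjusted p of 0.05 and open points did not. MT2A, MT1X and MT1E lie between 4.33 and 6.77 in SW948 and between -0.73 and -0.56 in HT55. SLC30A1 lies at 1.55 in HT55 and 1.86 in SW948, and MTF1 at 0.55 and 0.62.

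All 9 members tested between the untreated lines were lower in SW948, where 41.6% of 12820 genes were lower and 42.6% higher. Of these, MT1E, MT1G, MT1X and MT2A were tested through HT55, so that their direction was built in and the tally is no measure against that share. Beside the genes above, SLC30A1 was lower by 1.13 on the log2 scale, MTF1 by 0.44 and SLC39A4 by 0.31. On plain library totals the call of SLC39A4 was lost (log2 difference -0.12, adjusted p = 0.109). SLC39A10 was lower by only 0.11 (adjusted p = 0.0364), which turned to 0.09 higher on plain library totals (adjusted p = 0.0881). That call was also lost without HT55 DMSO replicate 1 or 2 or SW948 DMSO replicate 2, 3 or 4 (adjusted p 0.057 to 0.0936). Between the treated lines 1 of 9 members was higher in SW948 and 4 were lower, with 37.8% of 12353 genes higher and 38.8% lower. MT1X was the higher one, at 16.1 against 3.05 CPM (log2 difference 2.40 ± 0.56, adjusted p = 0.00187). Its libraries overlapped, with treated SW948 replicate 1 at 3.71 CPM and treated HT55 replicates 1 and 2 at 4.87 and 4.01 CPM. MT2A was at 27.7 against 16.1 CPM, a difference of 0.77 (-0.16 to 1.70, adjusted p = 0.117) that passed without treated SW948 replicate 1 (1.12, adjusted p = 0.00348). MTF1, SLC30A1, SLC39A4 and SLC39A5 were lower in treated SW948. The libraries of MTF1 and of SLC30A1 overlapped between the treated lines, and those of SLC39A4 and SLC39A5 did not. The call of MTF1 (-0.34, adjusted p = 0.0423) was lost without treated HT55 replicate 1, 2 or 4 and without treated SW948 replicate 1, 2 or 4 (adjusted p up to 0.137).

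Per length of the canonical transcript, in RPKM (CPM per kilobase), the order of levels also changed. The full length was used, though only 44.6% of MT2A windows, against at least 99.8% in each transporter, had no match elsewhere within 2 mismatches. The metallothioneins may thus stand too low beside the transporters in this order. In untreated HT55 MT2A came first at 66.6 ± 4.61 RPKM, then SLC39A5 at 49.7, SLC30A1 at 31.9 and SLC39A4 at 24.8 RPKM, each clear of the next. In treated HT55 SLC30A1 came first at 93.8 ± 25.2 RPKM, before SLC39A5 at 49.0 and MT2A at 40.2 RPKM, whose libraries overlapped. In untreated SW948 SLC39A4 led at 19.8 RPKM, followed by SLC30A1 at 14.6 and SLC39A10 at 12.7 RPKM, and MT1X and MT2A overlapped at 1.84 and 1.70 RPKM. In treated SW948 MT2A at 69.0 ± 47.0, SLC30A1 at 54.3 ± 7.08 and MT1X at 39.9 ± 29.4 RPKM overlapped in their libraries. MTF1 lay between 1.27 and 2.55 RPKM in the group means.

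The other genes of zinc and metal handling were taken from lists, and from each list the called genes with the largest changes are named, up to 2 in each direction and line. Of 12 other metallothionein genes, 10 had a row and 7 had counts, and none was tested. Over all 16 libraries MT1A had 51 counts, MT4 6, MT1B and MT3 3 each, MT1DP 2, and MT1M and MT1JP 1 each.

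Of the other SLC30 exporters, 6 were tested in each line, with a median log2 fold change of -0.13 in HT55 and 0.046 in SW948, beside -0.015 and -0.025 over all genes. HT55 had 0 higher and 2 lower, where 27.5% of all genes rose and 26.5% fell, and SW948 had 2 higher and 2 lower, where 38.9% rose and 41.3% fell. The counts of this and the following lists are read beside those shares, and those of SW948 lie near them here. SLC30A6 fell in HT55 and more deeply in SW948 (log2 fold change -0.34 and -1.49), and so did SLC30A9 (-0.48 and -1.67). The test of the difference between lines passed for both (adjusted p = 2.06e-06 and 7.49e-06). SLC30A3, a zinc loader of synaptic vesicles in neurons, rose in SW948 by 3.72 on the log2 scale, from 0.126 to 1.83 CPM. It had 6 counts in the controls, on which this fitted size rests, and 64 in the treated libraries, through which alone it was tested. SLC30A7, which moves zinc into the Golgi, rose there by 0.27.

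Of the other SLC39 importers, 9 were tested in each line, with a median of 0.37 in HT55 and 0.029 in SW948. HT55 had 5 higher and 0 lower (27.5% and 26.5% of all genes), and SW948 had 3 higher and 4 lower (38.9% and 41.3% of all genes). SLC39A7, which releases zinc from the endoplasmic reticulum, was higher after drug in HT55 and SW948, by 0.78 and 0.44 on the log2 scale. SLC39A1, a plasma membrane importer, rose by 0.48 in HT55, and SLC39A14, which carries iron and manganese as well as zinc, rose by 0.27 in SW948. SLC39A11 and SLC39A3 had the largest falls in SW948, at log2 fold changes of -0.88 and -0.65.

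Copper handling genes were mixed, with 2 of 10 higher and 3 lower in HT55 (median log2 fold change 0.050) and 2 higher and 5 lower in SW948 (median -0.25). The shares over all genes were 27.5% higher and 26.5% lower in HT55, against 38.9% higher and 41.3% lower in SW948. In HT55 the copper pump ATP7A rose by 0.69 and the mitochondrial copper chaperone COX17 by 0.40 on the log2 scale. COMMD1, which acts in copper export, and SLC31A1, the main copper importer, had log2 fold changes of -0.76 and -0.53 there. In SW948 COX17 and CUTC rose (0.999 and 0.93), while COMMD1 and the copper pump ATP7B fell (-1.59 and -1.34).

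Oxidative stress targets were listed since some metallothionein genes also respond to oxidants. In HT55 5 of 7 were higher and 1 lower (median log2 fold change 0.64), and in SW948 6 of 7 were higher and 0 lower (median 1.45), beside 27.5% and 38.9% of all genes that rose in HT55 and SW948. HMOX1, which degrades heme, rose by 2.43 in HT55 and by 3.02 in SW948 on the log2 scale. TXNRD1, which reduces thioredoxin, rose by 1.17 and 2.39, and SLC7A11, a cystine importer, had a log2 fold change of -0.74 in HT55. Glucocorticoid targets were listed because metallothionein genes respond to glucocorticoids as well. HT55 had 3 of 6 higher and 1 lower (median 0.34), and SW948 had 4 of 7 higher and 1 lower (median 1.65), beside the same 27.5% and 38.9%. PER1, a clock gene, rose by 2.35 in HT55 and by 4.21 in SW948. SGK1, a kinase, rose by 0.68 in HT55, and TSC22D3, a leucine zipper protein, rose by 1.81 in SW948. FKBP5, a chaperone of steroid receptors, fell in HT55 (-1.18 on the log2 scale) and SW948 (-0.83). NR3C1, the glucocorticoid receptor, is on the same list and was too low to be tested. It had 3 counts in untreated and 5 in treated SW948, and 6 in untreated and 26 in treated HT55 (group means of at most 0.731 CPM).

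Genes with the profile most like MT2A, the most abundant metallothionein, and SLC30A1, the transporter with the most counts among the 10 genes, were sought over the 16 libraries after each line's mean was taken off the log2 level. Nearest to MT2A of 9175 genes was KRT18, a keratin of simple epithelium, at a Pearson correlation of 0.988, followed by KRT19, BICD1, ATF4 and SF1. A correlation leaves the size of a change aside. The log2 fold change of KRT18 was -0.14 in HT55 and 0.72 in SW948, beside -0.73 and 5.24 for MT2A. Nearest to SLC30A1 was ELF1, an ETS transcription factor, at 0.995, followed by SPAG9, HPS3, YPEL2 and ITSN2. A correlation above 0.9 was reached by 545 genes for MT2A and by 1410 for SLC30A1, and all of these share the contrast of treated and control libraries.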

How the data were processed

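RNA was sequenced as single-end reads of 50 bases from TruSeq libraries. The submitters' processing notes name TopHat, HTSeq, DESeq and the build hg19; versions, strand setting and annotation release are not given in the sources used here. The deposited files hold raw read counts per gene from the authors, with 5 totals of reads outside genes left out of library sizes; 47098 rows had a symbol in GENCODE v44 lifted to GRCh37 or the table of gene names supplied with the data. Tests were quasi-likelihood F tests in edgeR 4.0.16, run under R 4.3.3 (TMM, filterByExpr at 10 counts, Benjamini-Hochberg over all genes tested, called under 0.05). Each line was fitted on its 8 libraries and the difference of responses on all 16. DESeq2 1.42.0, other scalings, filters and thresholds, a replicate block and leaving out each library were alternatives. Scripts were tested on simulated counts. The named genes are the 10 members, the other metallothioneins with counts, and the 2 called genes that rose and the 2 that fell most per list and line. The 5 nearest profiles of MT2A and SLC30A1, NR3C1, and the listed genes with at least 3 motif matches are named besides. Members and lists were chosen with earlier results of these data known. Coordinates are 1-based.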

Additional observations from a re-analysis of the deposited data

Results flagged for a closer look

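SLC30A1 stood apart in 1 untreated SW948 library. Replicate 2 was at 98.5 CPM and the other 3 lay between 82.0 and 82.2 CPM, so that its gap was 0.991 of the group's range, over Dixon's limit of 0.829 for 4 samples. SLC39A5 stood apart in treated SW948 replicate 3, at 3.56 CPM on 28 counts against 2.45 to 2.60 CPM, a gap of 0.862 of the range. In all, 38 groups with at least 10 counts were examined, of which chance alone is expected to give 1.9, and these 2 were found.

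The response to itraconazole differed between the lines by a test of the difference itself for 5 of 9 members, where 53.9% of 13249 genes differed. MT1E, MT2A, MT1G and MT1X among these 5 genes were tested through groups in which they were high. The log2 fold change in SW948 was above that in HT55 by 7.32 for MT1E, 6.01 for MT2A, 5.65 for MT1G, 5.10 for MT1X and 0.29 for SLC39A10 (edgeR, 16 libraries). All 4 treated SW948 libraries were above all SW948 controls for each of these genes, and the share of all genes that separate so was not measured. The values for MT1E and MT1G rest on 1 and 2 counts in untreated SW948. The difference of SLC39A10 was lost in 13 of 16 refits without a single library, on plain library totals (0.10, adjusted p = 0.565) and without a filter (adjusted p = 0.0886).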

How the results depend on the processing

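Of the comparisons of single genes with their alternatives, 756 kept direction and side of the threshold, 54 lost and 23 gained a call, and 9 changed sign. Counts of members called were within 1.5 times in 91 cases and moved in 6. With an absolute log2 fold change of at least 1 required, 1 of 9 members was called in HT55, where 1169 of 12133 genes were. In SW948 it was 4 of 8 members, where 4001 of 12505 genes were called. MT2A, MT1X and MT1E among those 4 were tested through the treated libraries in which they were high. Between treated lines it was 2 of 9 members, where 2325 of 12353 genes were called higher and 2598 lower in SW948. With at least 10 counts in every library, which leaves out genes near 0 in SW948, fewer members were tested. In SW948 4 of 5 were called, where 8820 of 11094 genes were. Between untreated lines 4 were called, where 4672 genes were called higher and 4561 lower in SW948. For the difference of responses it was 1 of 5, where 6222 of 10331 genes were called. On plain library totals the log2 change of SLC39A5 in SW948 was -0.25, the difference of responses was -0.094 for MTF1 and -0.055 for SLC39A5, and the untreated difference of SLC39A10 was 0.086; none of these passed. When single libraries were left out, the HT55 change ran from -0.069 to 0.49 for MT1G and from -0.10 to 0.040 for SLC39A5, and the SW948 change of SLC39A5 from -0.043 to 0.16; no such fit passed. The falls of MT1X and MT1E in HT55 passed on plain totals (adjusted p = 0.028 and 0.0216), without a filter (0.037 and 0.0482) and with a replicate block (0.0459 and 0.0399), which gave 6 members called in HT55 in place of 4. Same-numbered libraries of a line correlated at -0.0443 to 0.139 in their deviations from the group means, so the block was not used as the design: the number is all they are shown to share. Without a filter the difference of responses passed for SLC30A1 (0.33, adjusted p = 0.0209) and SLC39A4 (-0.39, adjusted p = 0.0299), and for SLC39A4 also on plain totals (adjusted p = 0.0128) or without replicate 2 of either HT55 group, SW948 DMSO replicate 2 or treated SW948 replicate 3 (adjusted p 0.0127 to 0.0409). Where no value shows the cause of a change, the cause was not tested. Depth limits MT1F throughout, and MT1E and MT1G in untreated SW948.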
